A study of Mus musculus with 6 samples.

Results

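Libraries of cells sorted as regulatory T cells (Tregs) from the injured mouse brain were compared with libraries of cells sorted in the same way from the blood of sham-operated mice. The comparison was chosen by the labels of tissue and operation. It takes 4 of the 6 libraries of the series, 2 of tMCAO brain and 2 of sham blood, and covers all genes of the count table. The donors were all male, 9 weeks of age, on a C57BL/6N background and carried Tg(Foxp3-DTR/EGFP)23.2Spar, a transgene in which Foxp3 regulatory sequences drive a fusion of the diphtheria toxin receptor and green fluorescent protein. That transgene marks cells by their Foxp3 promoter activity, in the sham mice as well as in the operated ones. Transient middle cerebral artery occlusion (tMCAO), in which a main artery of the brain is blocked and then reopened, lasted 60 min, and CD4+CD25+Foxp3+ cells were sorted 14 days later. Sham mice had no occlusion. The remaining 2 libraries, from the blood of tMCAO mice, share the operation with the brain libraries and the tissue with sham blood. Their values are given beside many of those of the comparison. Because tissue and operation differ together between tMCAO brain and sham blood, their parts in any difference cannot be told apart.

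Tregs are CD4+ lymphocytes that restrain immune responses under the control of the transcription factor Foxp3. Those that circulate carry homing and recirculation genes, while those that enter injured tissue meet resident macrophages, which in the brain are the microglia. After a stroke microglia take up myelin and cell debris, and a lipid-handling state marked by Apoe, Trem2 and Spp1 is well known in them. Spp1 encodes osteopontin, the secreted protein in the title of the series.

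Each library was made from 500 to 1000 cells and held between 14348179 and 24460894 counts. Of 51361 genes, 31242 had a count and 16657 passed the filter on low counts and were tested with edgeR's quasi-likelihood test. Whether both libraries of a group are from different mice is not in the labels. The p-values therefore reflect only library-to-library spread, which may be technical. The sham libraries were close to each other, with a median absolute log2 difference of 0.331 over tested genes, against 0.544 between the brain libraries. Differences over 4-fold between replicates were seen for 5.01% of genes in sham blood and 10.8% in tMCAO brain.

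The libraries held unequal shares of marker counts, and these stand beside every result that follows. The 20 T cell identity genes, such as those of the T cell receptor complex, made up 0.0322% and 0.171% of the brain libraries, 0.076% and 0.512% of those of tMCAO blood, and 0.983% and 0.951% of those of sham blood. By contrast 24 microglia markers made up 3.70% and 3.57% of the brain libraries, 1.13% and 0.735% of those of tMCAO blood, and 0.222% and 0.253% of those of sham blood. Red cell genes were scarce in brain, at 0.0442% and 0.0409% of the library, against 16.2% and 17.9% for sham blood. Of the tested members, Sall1 alone among microglia markers had no count in sham blood, and 5 red cell genes had none in brain. So the brain libraries were low in T cell transcripts and high in those of microglia, and the sham libraries were high in those of red cells.

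Smaller shares moved as well. Dendritic cell markers made up 0.319% and 0.613% of the brain libraries and 0.0209% and 0.0278% in sham blood. Monocyte and macrophage markers took 3.5% and 1.42% in brain and 0.813% and 0.661% in sham blood. Platelet genes took 0.0514% and 0.00716% in brain and 0.161% and 0.218% in sham blood. Brain library 2 stood apart in B and plasma cell genes, at 1.37% of counts against 0.0201% in brain library 1 and 0.0928% and 0.121% in sham blood. It was also higher in CD8 T cell and natural killer cell genes, at 0.264% against 0.0403% in brain library 1 and 0.0307% and 0.0479% in sham blood. By share, no list of non-immune brain cell markers was above the sham libraries in both brain libraries. Neuron markers made up 0.00069% and 0.00122% of the brain libraries against 0.0134% and 0.0133% of the sham libraries, and endothelial and mural markers 0.00637% and 0.0338% against 0.0557% and 0.0554%. For astrocyte markers (0.0132% and 0.0482% against 0.0283% and 0.0406%) and oligodendrocyte markers (0.0144% and 0.0766% against 0.0437% and 0.0439%), brain library 1 lay below and brain library 2 above the sham libraries. Half-widths of the 95% Wilson intervals of these shares were at most 16.8% of the share, in neuron markers of brain library 1, and they cover counting error only. In such bulk libraries, fewer cells of a type and less RNA per cell cannot be told apart. What part the marker shares have in the gene results below was not tested.

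**Figure D1:**
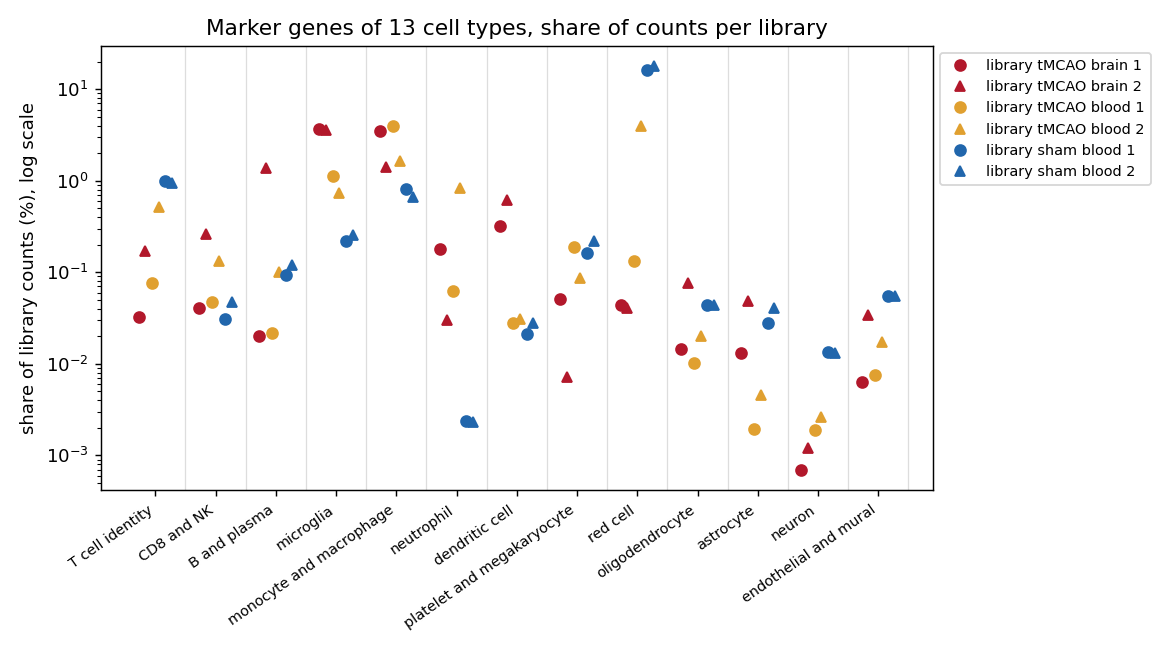
Share of each library's total counts (%, log scale) taken by the marker genes of 13 cell types, with 1 point per library and groups set apart by colour. T cell identity genes are highest in the 2 sham blood libraries (0.983% and 0.951%) and microglia markers in the 2 tMCAO brain libraries (3.70% and 3.57%).

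The genes of the sort gate were at lower levels in the brain libraries than in sham blood, with wide errors. Foxp3 (chromosome X, 7573644 to 7595245, plus strand, GRCm38) stood at 0.726 and 19.6 counts per 1000000 (CPM) in tMCAO brain and 50.1 and 60.7 CPM in sham blood. The brain libraries lay below both sham libraries, and brain library 1 held almost no Foxp3. The log2 difference of Foxp3 was -2.44 ± 1.44 (SE, n = 2 against 2) and did not pass (edgeR adjusted p = 0.311). Il2ra, which encodes the CD25 of the gate, differed by -2.66 ± 0.96 and Cd4 by -2.22 ± 0.82 on the log2 scale, and neither passed (edgeR adjusted p = 0.126 and 0.13). Cd4 stood at 42.6 and 33.7 CPM in the brain libraries against 171 and 183 in those of sham blood, so that for this gene the 2 brain libraries were alike. The direction did not hold in every one of the 16 alternatives. At its highest the log2 difference was 0.225 for Foxp3, 0.583 for Il2ra and 1.81 for Cd4, and none of these genes passed as higher. Other settings called some of these as lower: Il2ra and Cd4 passed by the Wald test of DESeq2 (adjusted p = 0.0137 and 0.0265). In edgeR, Foxp3 passed without the filter on low counts (-2.42 on the log2 scale, adjusted p = 4.6e-06), as did Il2ra and Cd4. Il2ra passed with the replicate number as a block (edgeR adjusted p = 0.0288), and Cd4 with only the 2 groups compared (0.00933) and without tMCAO blood library 1 or 2 (0.0116 and 0.0117).

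Across all genes, 1772 passed the edgeR test at an adjusted p under 0.05, which is 10.6% of those tested. Of these, 1335 were higher in tMCAO brain (8.01% of tested genes) and 437 lower (2.62%), so that 75.34% of the calls were upward. The median log2 difference of all tested genes was 0.093, with quartiles at -0.59 and 1.19. The called changes were large, with a median of 10.97-fold and a smallest of 2.05-fold. At an unadjusted p under 0.05 the count was 5034 genes, and for 10765 genes (64.63%) the 2 brain libraries did not overlap the 2 sham libraries. Among the called genes, 200 of those higher had no count in sham blood and 32 of those lower had none in brain. In the same fit, 816 genes (4.9%) passed between tMCAO brain and tMCAO blood and 1246 (7.48%) between tMCAO blood and sham blood. These comparisons share libraries with the main one and do not support it independently.

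Both counts rest on choices that must be read with them. Without sham blood library 1 or without sham blood library 2 no gene passed in edgeR, where the smallest adjusted p was 0.107 and 0.0979 and 3160 and 3005 genes had an unadjusted p under 0.05. The Wald test of DESeq2 still called 2036 and 2030 genes in those fits, and limma-voom called 0 in each, with 2619 and 2554 genes at an unadjusted p under 0.05. The edgeR calls named in the rest of the text are thus calls of a design with both sham libraries. Without brain library 1, 768 genes passed, and without brain library 2, 1175. With libraries scaled to the T cell identity genes in place of all genes, the median gene rose to a log2 difference of 3.97, and 8046 of 8099 calls (99.35%) were upward. Directions in the text are therefore relative to the median gene of the library.

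**Figure D2:**
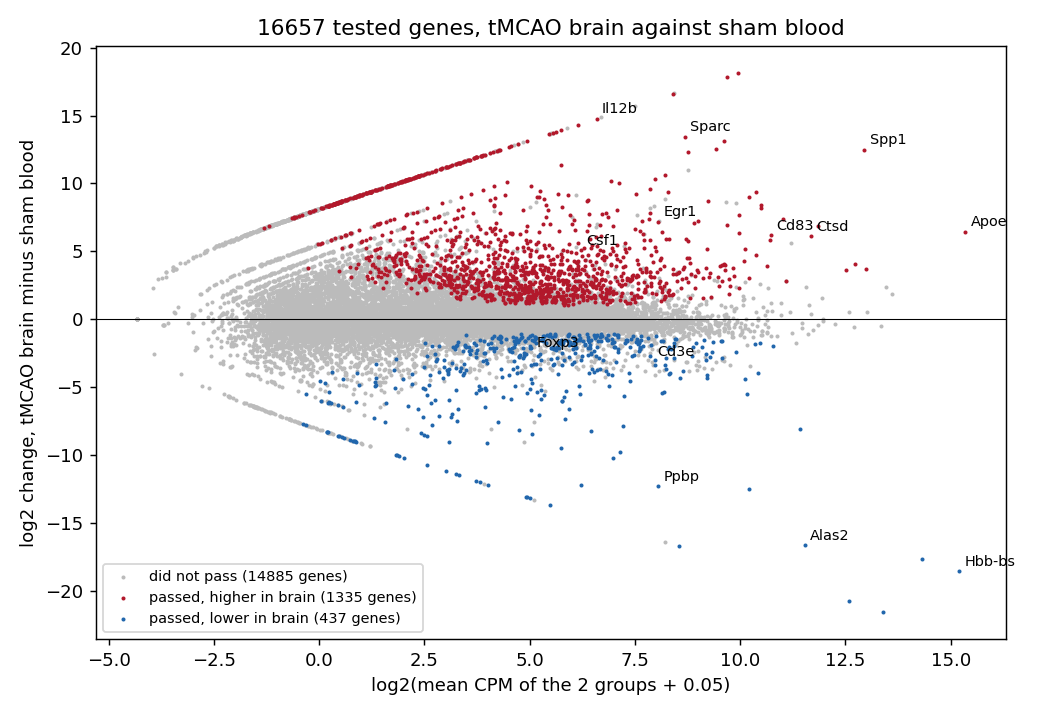
Log2 difference between tMCAO brain and sham blood (y axis) against the log2 of the mean CPM of both groups plus 0.05 (x axis) for the 16657 tested genes, coloured by the edgeR call. The 1335 genes called higher and 437 called lower reach far from 0, and the straight streaks at the edges are genes with no count in 1 group.

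Microglia markers were higher in the brain libraries almost without exception. Of 24 such genes tested, 23 rose and none fell, with a median log2 difference of 6.86 against 0.093 for all tested genes. Sparc (chromosome 11, 55394500 to 55423183, minus strand), a matrix-binding glycoprotein of microglia and other brain cells, stood at 735 and 913 CPM in the brain libraries, 0.0538 and 0.0997 in those of tMCAO blood and 0 and 0.141 in those of sham blood. With 2 sham counts, the ratio of Sparc was 12533-fold (95% counting interval 3469 to 103496), and edgeR called it at an adjusted p of 0.00841. It was thus abundant in both brain libraries and near absent from all 4 blood libraries.

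Fcrls, an Fc receptor-like gene used as a microglia marker, stood at 1831 and 1331 CPM in the brain libraries, 5.60 and 0.947 in those of tMCAO blood and 0.0642 and 0.281 in those of sham blood (a log2 change of 13.13 ± 1.32, edgeR adjusted p = 0.00935). Trem2, a lipid-sensing receptor of microglia, and Csf1r, the receptor for the macrophage growth factor M-CSF, had intermediate levels in tMCAO blood. Trem2 stood at 1110 and 802 CPM in the brain libraries, 83.2 and 40.4 in those of tMCAO blood and 4.62 and 9.43 in those of sham blood (a log2 change of 7.09 ± 0.66, edgeR adjusted p = 0.00841). Csf1r stood at 1716 and 1225 CPM in brain, 542 and 472 CPM in the tMCAO blood libraries, and 103 and 131 CPM in the sham libraries (a log2 change of 3.65 ± 0.38, edgeR adjusted p = 0.00956). The one marker that did not pass, Selplg, the P-selectin ligand that lymphocytes also carry, is named here after its value was seen (log2 difference -0.38, edgeR adjusted p = 0.515). Without brain library 1 the count of microglia markers called was 17 and without brain library 2 it was 20, while without sham library 1 or 2 it was 0 in edgeR.

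Genes of the lipid-responsive myeloid state rose with them. Of 25 tested, 20 rose and none fell, with a median log2 difference of 5.09, and the list took 18.5% and 10.2% of all counts in brain, 3.77% and 2.33% in tMCAO blood, and 1.09% in each sham library. Spp1 (chromosome 5, 104435118 to 104441050, plus strand) stood at 19284 and 12353 CPM in the brain libraries, 669 and 234 in those of tMCAO blood and 0.257 and 5.28 in those of sham blood. Every brain value of Spp1 was above every blood value, and the sham libraries differed from each other by a wide factor at their low level (a log2 change of 12.48 ± 1.79, edgeR adjusted p = 0.0155). Clec7a, the beta-glucan receptor dectin-1, was more even than Spp1, at 828 and 813 CPM in the brain libraries, 81.1 and 90.8 in those of tMCAO blood and 32.9 and 38.0 in those of sham blood (a log2 change of 4.53 ± 0.32, edgeR adjusted p = 0.00841). Ch25h, the cholesterol 25-hydroxylase, stood at 72.7 and 49.6 CPM in brain and had no count in sham blood, at least 585-fold higher above a group floor of 3 counts (edgeR adjusted p = 0.00841). These 3 genes passed without brain library 1 or 2 and failed without sham library 1 or 2 (edgeR adjusted p between 0.0979 and 0.107).

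Lysosomal genes showed the same direction. Of 28 tested, 21 rose and none fell, and the median log2 difference was 3.65. In all 28 the brain libraries lay above the sham libraries. The brain and sham libraries did not overlap, in either direction, for 64.63% of all tested genes. Ctsd, encoding the protease cathepsin D, stood at 6408 and 6472 CPM in the brain libraries, 992 and 374 in those of tMCAO blood and 87.4 and 102 in those of sham blood (a log2 change of 6.09 ± 0.65, edgeR adjusted p = 0.00994). Grn, encoding progranulin, rose 36.2-fold, and Atp6v0d2, a subunit of the proton pump that acidifies lysosomes, rose 25.2-fold. Atp6v0d2 was low in all blood libraries (1.67 and 1.30 CPM in tMCAO blood, 4.75 and 2.88 CPM in sham blood) and stood at 112 and 80.9 CPM in brain. Lysosomal calls numbered 14 without brain library 1, 23 without brain library 2 and 0 without sham library 1 or 2.

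Complement genes rose in 12 of 19 tested cases and fell in none, with a median log2 difference of 5.22. C1qc, a chain of the C1q recognition molecule, stood at 5026 and 3157 CPM in the brain libraries, 1363 and 642 in those of tMCAO blood and 8.92 and 39.5 in those of sham blood (a log2 change of 7.40 ± 1.00, edgeR adjusted p = 0.0144). C4b, a complement component downstream of C1q, had a different pattern, at 173 and 30.6 CPM in the brain libraries, 129 and 113 in those of tMCAO blood and 0.257 and 0.0704 in those of sham blood. Its brain and tMCAO blood levels overlapped (log2 difference -0.25, edgeR adjusted p = 0.85), while its difference from sham blood passed in edgeR (log2 change 9.19 ± 1.17, adjusted p = 0.0132) and not in limma-voom (adjusted p = 0.0918). Without brain library 1 the complement calls numbered 6, without brain library 2 they numbered 10, and none was left without sham library 1 or 2.

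Genes of secreted signals were higher in brain, several from no count at all in sham blood. Of 29 cytokine and growth factor genes tested, 14 rose and none fell. Csf1 (chromosome 3, 107741048 to 107760469, minus strand), which encodes M-CSF, stood at 142 and 147 CPM in the brain libraries, 4.68 and 5.53 in those of tMCAO blood and 4.24 and 4.22 in those of sham blood. Both blood groups were alike and replicates were close in all 3 groups (a log2 change of 5.09 ± 0.28, edgeR adjusted p = 0.00841). Tnf, the inflammatory cytokine, stood at 285 and 129 CPM in brain and between 5.78 and 6.78 CPM in the 4 blood libraries (a log2 change of 5.0 ± 0.47, edgeR adjusted p = 0.00856). Igf1, insulin-like growth factor 1, stood at 436 and 346 CPM in the brain libraries, 19.1 and 30.4 in those of tMCAO blood and 2.5 and 6.05 in those of sham blood (a log2 change of 6.52 ± 0.59, edgeR adjusted p = 0.00841). For Tnf and Csf1 the change lay between brain and both kinds of blood, whereas Igf1 was also higher in tMCAO blood than in sham blood (log2 change 2.53, edgeR adjusted p = 0.0412).

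Il10, encoding the anti-inflammatory interleukin-10 made by Tregs and macrophages, stood at 84.1 and 20.6 CPM in brain, 0.0538 and 1.15 CPM in tMCAO blood and had no count in sham blood. This was at least 459-fold higher in brain over the floor of 3 counts (edgeR adjusted p = 0.0302), with the higher level in the brain library that held less Foxp3. Its call was lost without brain library 1 (edgeR adjusted p = 0.0691) and by limma-voom. Il12b, the p40 subunit of interleukin-12 that dendritic cells make, stood at 61.2 and 325 CPM in brain with no count in any of the 4 blood libraries, at least 2169-fold above sham blood (edgeR adjusted p = 0.0232), and was lost by limma-voom. Vegfa, the endothelial growth factor, stood at 68.2 and 62.9 CPM in the brain libraries and 0.0642 and 0.0704 in those of sham blood (edgeR adjusted p = 0.0359). With 2 sham counts its ratio was 969-fold (95% counting interval 268 to 8006), and the call was lost without brain library 1 or 2 (edgeR adjusted p = 0.0733 and 0.0586). The calls of all 6 secreted factors described above were lost in edgeR without sham library 1 or 2.

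Chemokine genes, which recruit leukocytes, rose in 10 of 21 tested cases and fell in none. Their median log2 difference was 8.33, or 7.74 with the 8 genes at no sham count set to their lower bound. Cxcl16, the ligand of Cxcr6, stood at 446 and 359 CPM in the brain libraries, 30.8 and 15.2 in those of tMCAO blood and 1.73 and 3.73 in those of sham blood (a log2 change of 7.20 ± 0.63, edgeR adjusted p = 0.00841). Ccl8 was uneven, at 3061 and 216 CPM in brain, 40.8 and 6.53 CPM in tMCAO blood and 0 in sham blood, at least 13532-fold higher (edgeR adjusted p = 0.0279). Ccl7, at 1224 and 125 CPM in brain, overlapped with tMCAO blood (242 and 6.58 CPM), had no count in sham blood, was at least 5639-fold higher and barely passed (edgeR adjusted p = 0.0498). Ccl22, a chemokine of mature dendritic cells, stood at 55.1 and 228 CPM in brain and had 0 counts in sham blood. Ccl22 and Il12b, both members of the dendritic cell list, were higher in brain library 2, and Ccl8 was higher in brain library 1. The Ccl7 call was lost without brain library 1 or 2 (edgeR adjusted p = 0.0929 and 0.0533), and Ccl7, Ccl8 and Ccl22 did not pass in limma-voom. Chemokine calls ranged from 7 without brain library 2 to 17 without tMCAO blood library 1, and fell to 0 without sham library 1 or 2.

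**Figure D3:**
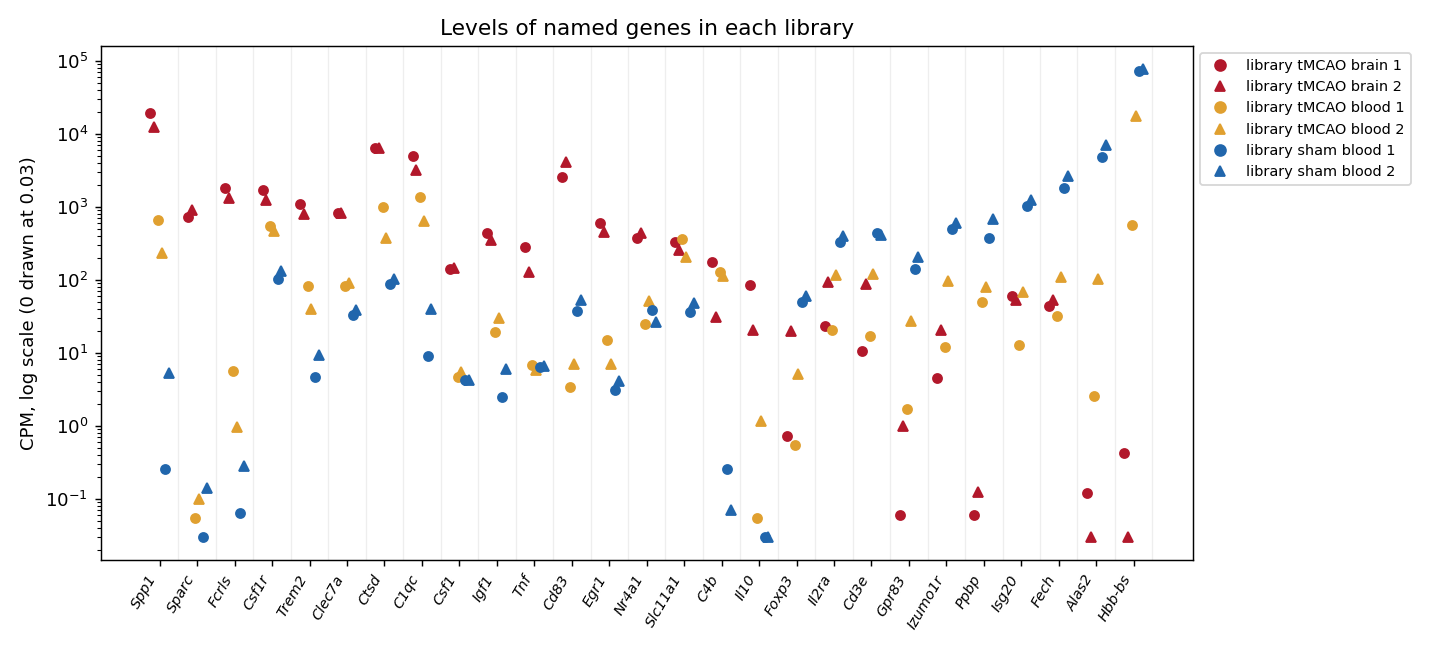
CPM (log scale, 0 drawn at 0.03) of 27 named genes in each of the 6 libraries, 1 point per library and 1 colour per group. Genes from Spp1 to Il10 lie highest in tMCAO brain, with C4b and Slc11a1 as high in tMCAO blood, and genes from Foxp3 to Hbb-bs lie highest in sham blood.

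Immediate early genes, which cells transcribe within minutes of a stimulus, were higher in the brain libraries in most cases. Of 31 tested, 25 rose and none fell, with a median log2 difference of 3.67. Egr1, a zinc finger transcription factor, stood at 592 and 455 CPM in the brain libraries, 15 and 6.93 in those of tMCAO blood and 3.08 and 4.08 in those of sham blood (a log2 change of 7.19 ± 0.56, edgeR adjusted p = 0.00841). Fosb, a subunit of the AP-1 factor, stood at 199 and 137 CPM in brain and between 0.548 and 1.99 CPM in the 4 blood libraries (a log2 change of 7.76 ± 0.71, edgeR adjusted p = 0.00841). Nr4a1, an orphan nuclear receptor induced by T cell receptor signals and also by stimuli of myeloid cells, stood at 370 and 432 CPM in the brain libraries, 24.8 and 51.5 in those of tMCAO blood and 38.5 and 26.7 in those of sham blood (a log2 change of 3.62 ± 0.46, edgeR adjusted p = 0.0132). In these 3 genes the brain libraries stood alone, and the 2 kinds of blood did not pass as different (edgeR adjusted p between 0.076 and 0.75). The preparation of cells from brain and from blood cannot be told apart from the tissue here. Heat shock genes, a group that also responds to stress on cells, rose in 2 of 14 tested cases, Hspa1a and Hspa1b, near-identical copies whose calls were lost without brain library 1 or 2 (edgeR adjusted p between 0.0637 and 0.0814). Immediate early calls numbered 17 without brain library 1, 21 without brain library 2 and 0 without sham library 1 or 2.

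NF-kB and TNF feedback genes rose in 11 of 27 tested cases and fell in none, with a median log2 difference of 1.62. Nfkbid, an atypical nuclear inhibitor of NF-kB, stood at 442 and 357 CPM in the brain libraries, 18.8 and 18.4 in those of tMCAO blood and 31.3 and 41.4 in those of sham blood (a log2 change of 3.46 ± 0.31, edgeR adjusted p = 0.00841). Nfkbiz, of the same inhibitor family, rose 10.6-fold. Tnfaip2, a TNF-induced gene, stood at 248 and 134 CPM in the brain libraries, 123 and 58.1 in those of tMCAO blood and 8.34 and 5.42 in those of sham blood (a log2 change of 4.79 ± 0.57, edgeR adjusted p = 0.012). For Tnfaip2 the brain and tMCAO blood libraries were close (log2 difference 1.08, edgeR adjusted p = 0.21), unlike for Nfkbid, which was lowest in tMCAO blood. The NF-kB calls numbered 8 and 6 without brain library 1 and 2, 15 without tMCAO blood library 1 or 2 and 0 without sham library 1 or 2.

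Promoters of some called genes held a cyclic AMP response element, the palindrome TGACGTCA bound by CREB and ATF factors. Those of 3 named genes called higher are printed below. RefSeq promoters of GRCm38.p6 were searched over the 250 bases before each start, on both strands. A match is a description of these letters and no evidence of binding. The element was found in 1.77% of 27025 genes with a promoter entry and in 2.91% of tested genes with one. Its share was 3% among those called higher, close to that of tested genes, and 1.56% among those called lower. Among immediate early genes called higher it was found in 4 of 21 with an entry (19%), namely Btg2, Dusp1, Maff and Ppp1r15a. Ppp1r15a, a phosphatase subunit of the stress response, stood at 548 and 380 CPM in the brain libraries, 17.3 and 6.13 in those of tMCAO blood and 53.3 and 95.2 in those of sham blood (a log2 change of 2.64 ± 0.59, edgeR adjusted p = 0.0417), a call lost without brain library 1 or 2 (edgeR adjusted p = 0.112 and 0.0614). Stretches free of annotated exons are printed on the gene's strand, 5′ to 3′, for Ppp1r15a (chr7:45526269-45526329, minus strand), Nfkbid (chr7:30422156-30422405, plus strand) and Ch25h (chr19:34475165-34475382, minus strand). Capitals mark the element, whose first base lies 12, 51 and 61 bases before the start in that order. Nfkbid has 3 promoter entries, and the printed one holds 1 match. How many of the 3 hold the element is not reported here. The printed Nfkbid stretch lies inside the annotated gene (chromosome 7, 30421732 to 30428746, plus strand). Neither Nfkbid nor Ch25h is on the immediate early list.

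Ppp1r15a: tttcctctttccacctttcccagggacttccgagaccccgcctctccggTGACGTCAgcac
Nfkbid: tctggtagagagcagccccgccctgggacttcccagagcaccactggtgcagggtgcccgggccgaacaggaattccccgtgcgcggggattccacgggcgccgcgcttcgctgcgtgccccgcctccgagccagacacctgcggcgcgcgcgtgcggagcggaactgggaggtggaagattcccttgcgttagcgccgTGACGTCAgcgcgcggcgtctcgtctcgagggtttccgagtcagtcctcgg
Ch25h: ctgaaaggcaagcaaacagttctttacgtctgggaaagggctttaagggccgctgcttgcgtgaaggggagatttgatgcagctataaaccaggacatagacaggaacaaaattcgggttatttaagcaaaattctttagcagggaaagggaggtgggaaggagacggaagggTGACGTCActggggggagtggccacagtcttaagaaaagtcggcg

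Markers of dendritic cells and of activation rose in part. Of 16 dendritic cell markers tested 9 rose and none fell, with a median log2 difference of 3.95. Cd83 (chromosome 13, 43784775 to 43803132, plus strand), a surface protein of mature dendritic cells and activated lymphocytes, stood at 2554 and 4117 CPM in the brain libraries, 3.39 and 7.08 in those of tMCAO blood and 37.4 and 53.2 in those of sham blood. Its change against sham blood was 6.20 ± 0.61 on the log2 scale (edgeR adjusted p = 0.00915), and tMCAO blood was below sham blood (log2 change -3.11, edgeR adjusted p = 0.035). Fscn1, which bundles actin in the dendrites of mature dendritic cells, stood at 41.1 and 172 CPM in brain with 1 count in sham blood (ratio 3550-fold, 95% counting interval 637 to 140255, edgeR adjusted p = 0.0144), and did not pass in limma-voom. Irf8, a transcription factor of dendritic cells and microglia, rose 13.6-fold.

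Of 20 activation and checkpoint genes 7 rose, and 1 fell, Il2rg, the common cytokine receptor chain, named after its value was seen (log2 change -1.72, edgeR adjusted p = 0.0357). Lag3, an inhibitory receptor of activated T cells that microglia transcribe too, stood at 62.8 and 44.4 CPM in the brain libraries, 0.215 and 0.448 in those of tMCAO blood and 0.385 and 0.985 in those of sham blood (a log2 change of 6.29 ± 0.62, edgeR adjusted p = 0.00915). The list's median log2 difference was 0.17, close to the 0.093 of all tested genes, so its members did not share a direction. Of 12 MHC class II genes 1 rose (8.33%, against 8.01% of all tested genes), Ctss, a protease of the antigen-processing pathway (12-fold, edgeR adjusted p = 0.0179), while DESeq2 called 7. Of 17 class I genes none passed in edgeR under the main setting. Of the class I genes 2 had an unadjusted p under 0.05, and the Wald test of DESeq2 called 2 as lower and limma-voom 0, while edgeR with libraries scaled to T cell genes called 2 as higher. B2m, the light chain of class I molecules, stood at 11526 and 8274 CPM in the brain libraries and 6304 and 7176 in those of sham blood. For Cd83, Irf8, Lag3, Ctss, Il2rg and Fscn1 alike, the edgeR call was lost without sham library 1 or 2.

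Other myeloid markers did not move as one. Of 25 monocyte and macrophage markers 7 rose and 2 fell. Cd14, the lipopolysaccharide co-receptor, stood at 3139 and 2614 CPM in the brain libraries, 590 and 164 in those of tMCAO blood and 6.03 and 11.3 in those of sham blood (a log2 change of 8.38 ± 0.89, edgeR adjusted p = 0.00994). Treml4, a marker of nonclassical blood monocytes, stood at 6.41 and 6.37 CPM in the brain libraries, 42.9 and 116 in those of tMCAO blood and 63.4 and 60.3 in those of sham blood (a log2 change of -3.27 ± 0.50, edgeR adjusted p = 0.0179). The Treml4 call was lost without brain library 1 or 2 (edgeR adjusted p = 0.0691 and 0.0563), and its difference turned to 0.649 on the log2 scale with libraries scaled to T cell genes. The other gene that fell, Ear2, a ribonuclease of the same monocytes, is named after its value was seen (log2 change -4.00, edgeR adjusted p = 0.0367). Calls upward numbered 2 without brain library 1 and 10 without brain library 2, and 0 without sham library 1 or 2.

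Neutrophil genes were far higher in brain library 1 than in brain library 2. They took 0.18% and 0.03% of brain counts, 0.0625% and 0.834% of counts in tMCAO blood, and 0.00235% and 0.00233% in the sham libraries, and 3 of 11 tested rose (1 without brain library 1, 5 without tMCAO blood library 1). S100a8, an alarmin abundant in neutrophils, stood at 952 and 50.4 CPM in the brain libraries, 199 and 3466 in those of tMCAO blood and 0.0642 and 0.704 in those of sham blood. The highest S100a8 level was thus in a blood library, and the brain against sham call (edgeR adjusted p = 0.0493) was lost without brain library 1 (0.0933), without sham library 1 or 2, in limma-voom, with the replicate number as a block (0.0522), with total counts (0.0547) and with red cell genes removed (0.0507).

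Matrix and adhesion genes rose in 12 of 25 tested cases and fell in none, with a median log2 difference of 3.29. Itgb5, an integrin subunit that binds osteopontin and vitronectin, stood at 176 and 159 CPM in the brain libraries, 28.0 and 42.7 in those of tMCAO blood and 10.2 and 10.5 in those of sham blood (a log2 change of 4.02 ± 0.33, edgeR adjusted p = 0.00841). Timp2, an inhibitor of matrix metalloproteinases, rose 36.1-fold. Adamts1, a secreted protease, stood at 21.2 and 66.2 CPM in brain, 0 in tMCAO blood, and 1 count over both sham libraries (ratio 1432-fold, 95% counting interval 257 to 56584), and passed (edgeR adjusted p = 0.0144). The Itgb5 level in tMCAO blood lay between brain and sham blood, and its difference from sham blood passed (log2 change 1.77, edgeR adjusted p = 0.035). Without brain library 1 or 2 the matrix calls numbered 8 each, and none was left without sham library 1 or 2.

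Metabolic and stress groups changed in fewer members. Of 28 glycolysis and hypoxia genes 6 rose and none fell, among them Pfkfb3, which makes the activator of glycolysis (123 and 125 CPM in the brain libraries, 19.9 and 12.8 in those of tMCAO blood, 11.4 and 14.7 in those of sham blood, a log2 change of 3.25 ± 0.33, edgeR adjusted p = 0.00956), and Hk2, a hexokinase (12.9-fold). Of 24 cholesterol and fatty acid genes 4 rose and 1 fell. The efflux pump gene Abca1 stood at 493 and 335 CPM in the brain libraries, 86.0 and 73.1 in those of tMCAO blood and 7.64 and 7.25 in those of sham blood (a log2 change of 5.80 ± 0.37, edgeR adjusted p = 0.00841). Abca1, Abcg1 and Mylip, which rose, are targets of the oxysterol receptor LXR. Of 20 genes of the unfolded protein and integrated stress responses 6 rose, with the largest of the named changes in Atf3 (1734 and 676 CPM in the brain libraries, 20.6 and 6.03 in those of tMCAO blood, 3.59 and 2.11 in those of sham blood, a log2 change of 8.72 ± 0.98, edgeR adjusted p = 0.0107). Of 41 interferon-stimulated genes 6 rose and 2 fell, the latter Isg20, an exonuclease, and Gbp4, a GTPase named after its value was seen. Isg20 stood at 60.9 and 52.5 CPM in the brain libraries, 13 and 68.7 in those of tMCAO blood and 1030 and 1245 in those of sham blood (a log2 change of -4.33 ± 0.81, edgeR adjusted p = 0.028). With libraries scaled to T cell genes Isg20 differed by -0.33 on the log2 scale and did not pass (edgeR adjusted p = 0.849). It was lower in both groups of operated mice, and its call was lost without brain library 1 or 2 (edgeR adjusted p = 0.0962 and 0.086). Calls of glycolysis genes fell to 2 without brain library 1 and 3 without brain library 2, those of stress genes to 2 and 3, and upward interferon calls numbered 1 and 10, with none left in these groups without sham library 1 or 2. Without tMCAO blood library 1 or 2, 12 glycolysis and 13 stress genes were called.

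None of the 29 respiratory chain genes, 38 ribosomal protein genes and 35 cell cycle genes passed in edgeR under the main setting. At an unadjusted p under 0.05 the counts were 0, 20 and 2. The Wald test of DESeq2 called 24 ribosomal protein genes as lower and limma-voom 7, so this group differed between tools. Rps19, a protein of the small subunit, stood at 872 and 1135 CPM in the brain libraries, 1907 and 2572 in those of tMCAO blood and 2606 and 2157 in those of sham blood (log2 difference -1.25 ± 0.38, edgeR adjusted p = 0.086). The ribosomal median log2 difference was -0.87, and it turned to 2.98 with libraries scaled to T cell genes, still below the median gene of that scaling (3.97). DESeq2 called 1 cell cycle gene higher and 1 lower and no respiratory chain gene, and limma-voom called none of either group.

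**Figure D4:**
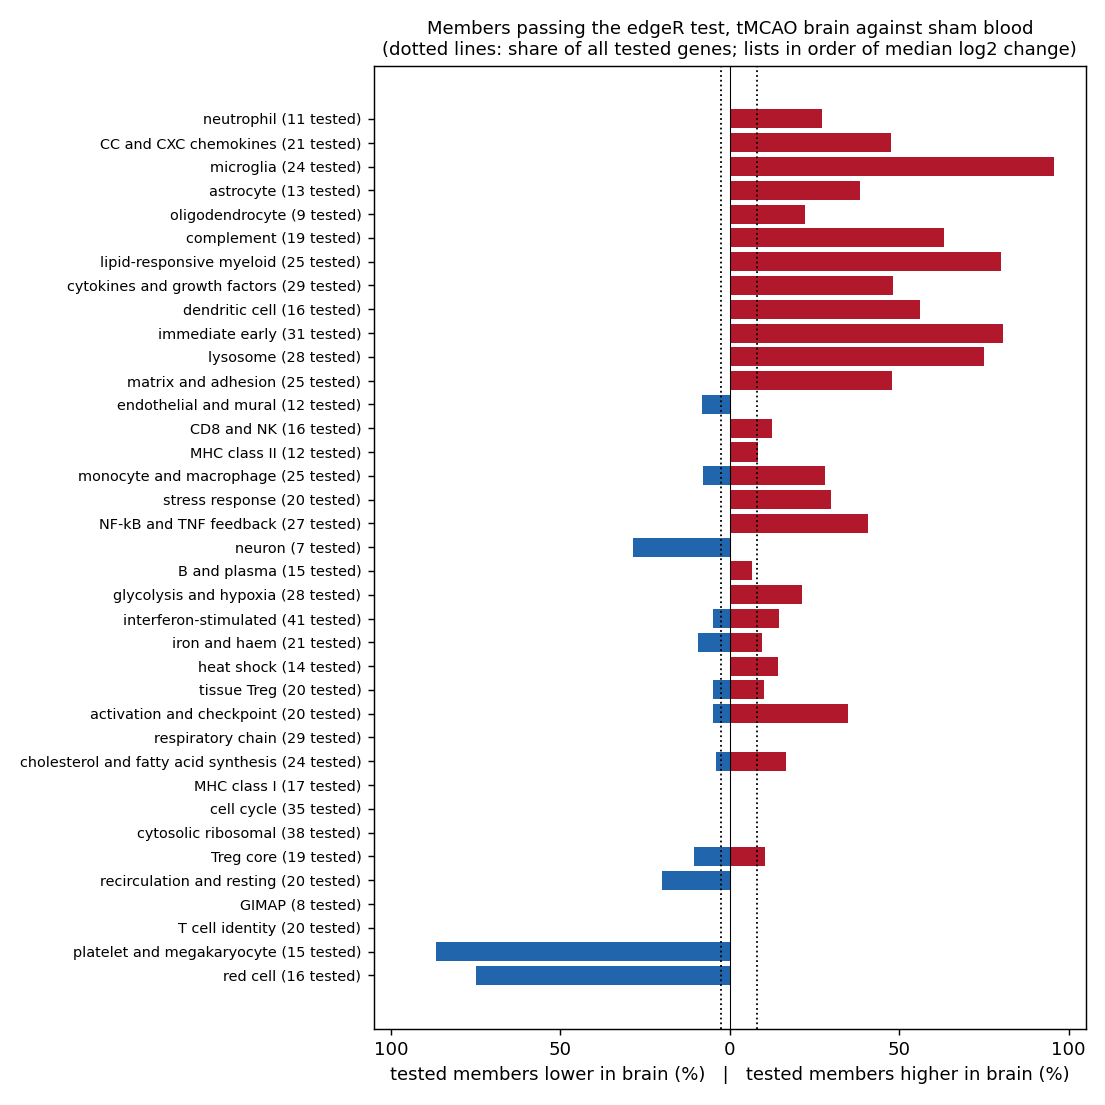
Percent of tested members of each of 37 gene lists called higher (right) or lower (left) in tMCAO brain than in sham blood by edgeR, in order of the list's median log2 difference. The dotted lines mark the shares among all tested genes, 8.01% higher and 2.62% lower, and the bar of the microglia list reaches 23 of 24 members on the right.

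T cell identity genes were lower in brain in every case by level, yet none passed in edgeR under the main setting. All 20 had both brain libraries below both sham libraries, where 64.63% of all tested genes did not overlap in either direction. The median log2 difference was -3.17, and 17 had an unadjusted p under 0.05. The Wald test of DESeq2 called 17 of them as lower, limma-voom 3, and edgeR 20 without the filter on low counts, 16 with the replicate number as a block, 10 with only the 2 groups compared, 8 and 7 without tMCAO blood library 1 and 2, 2 with the stricter filter and 2 without brain library 2. Lck, the kinase next to the T cell receptor, stood at 43.1 and 237 CPM in the brain libraries, 59.6 and 326 in those of tMCAO blood and 1147 and 1342 in those of sham blood (log2 difference -3.15 ± 1.06, edgeR adjusted p = 0.106). Brain library 1 was several fold below brain library 2, as it was for Foxp3 and Cd3e. The 8 genes of the GIMAP family, GTPases of lymphocyte survival, had the same pattern, with a median log2 difference of -3.03. That median turned to 0.12 with libraries scaled to T cell genes. None was called in edgeR under the main setting, and 6 had an unadjusted p under 0.05. As lower, DESeq2 called 7, limma-voom 3, and edgeR 8 without the filter, 6 with the replicate number as a block, 2 with only the 2 groups compared and 1 each with the stricter filter, without tMCAO blood library 1 and without tMCAO blood library 2.

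Among 20 genes of lymphocyte recirculation and the resting state, 4 fell and none rose. Rasgrp2, an activator of integrin adhesion in lymphocytes and platelets, stood at 8.23 and 15.2 CPM in the brain libraries, 93.4 and 109 in those of tMCAO blood and 166 and 177 in those of sham blood (a log2 change of -3.87 ± 0.39, edgeR adjusted p = 0.00915). Ly6c1, a surface antigen of memory lymphocytes and endothelium, stood at 0 and 0.572 CPM in the brain libraries, 22.3 and 56.6 in those of tMCAO blood and 294 and 268 in those of sham blood (a log2 change of -9.76 ± 1.18, edgeR adjusted p = 0.012). Both had the order sham blood, tMCAO blood, brain with no overlap between groups. Klf3, a zinc finger repressor, fell by 1.53 on the log2 scale, a call lost without brain library 1 or 2 (edgeR adjusted p = 0.112 and 0.119).

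The fall of Ly6c1 held with libraries scaled to T cell genes, whereas that of Rasgrp2 did not pass (edgeR adjusted p = 0.883), and the Klf3 difference turned to 2.44 without passing. The list's median log2 difference was -2.11, and 1.34 under that scaling, below its median gene of 3.97. Calls numbered 16 by DESeq2, 10 with the replicate number as a block, 3 without brain library 1, 5 without brain library 2, 7 without tMCAO blood library 1 or 2 and 0 without sham library 1 or 2.

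Of 19 Treg core genes tested, 2 fell and 2 rose (21.1% called). Among all tested genes 2.62% fell and 8.01% rose (10.6% called). Gpr83, a receptor of resting Tregs, stood at 0.0605 and 0.98 CPM in the brain libraries, 1.67 and 27.4 in those of tMCAO blood and 142 and 206 in those of sham blood (a log2 change of -8.26 ± 1.68, edgeR adjusted p = 0.0344). Izumo1r, the folate receptor 4 of Tregs, stood at 4.54 and 20.8 CPM in the brain libraries, 11.9 and 95.2 in those of tMCAO blood and 496 and 604 in those of sham blood (a log2 change of -5.44 ± 1.22, edgeR adjusted p = 0.0429). The 2 that rose, Entpd1, the ectonucleotidase CD39, and Swap70, an actin regulator, are also transcribed by microglia and other myeloid cells or B cells. Entpd1 stood at 313 and 161 CPM in the brain libraries and 23.9 and 54.3 in those of sham blood (a log2 change of 2.60 ± 0.60, edgeR adjusted p = 0.0461). All 4 calls were lost without brain library 1 or 2 (edgeR adjusted p between 0.0522 and 0.146) and without sham library 1 or 2, while the Gpr83 call held with libraries scaled to T cell genes and that of Izumo1r did not. The median log2 difference of this list, -1.78, turned to 1.12 under that scaling. With the replicate number as a block none rose and 6 fell, and DESeq2 called 2 as higher and 6 as lower. Entpd1 was lost with the block (edgeR adjusted p = 0.0545) and with DESeq2 size factors (0.0513), and Swap70 passed in 6 of 16 alternatives.

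Of 20 genes of the tissue Treg programme, Il10 and Nfil3 rose and Batf fell (15% called). Among all tested genes 10.6% were called, 8.01% as higher and 2.62% as lower. The list's median log2 difference was 0.29, with 10 members above 0 and 10 below, so the list as a whole did not share a direction. Nfil3, a basic leucine zipper factor, stood at 57.9 and 148 CPM in the brain libraries, 74.8 and 18.2 in those of tMCAO blood and 8.02 and 4.29 in those of sham blood (a log2 change of 4.06 ± 0.85, edgeR adjusted p = 0.0369), with brain and tMCAO blood overlapping. Batf, a factor that drives the programme in tissue Tregs, stood at 42.8 and 43.0 CPM in the brain libraries, 78.3 and 63.5 in those of tMCAO blood and 103 and 145 in those of sham blood (a log2 change of -1.53 ± 0.29, edgeR adjusted p = 0.0281). With libraries scaled to T cell genes the Batf difference turned to 2.40 and did not pass. The Batf call was lost without brain library 1 or 2 (edgeR adjusted p = 0.103 and 0.0837), the Nfil3 call without brain library 2 (0.0763) and in limma-voom, and both without sham library 1 or 2.

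Lymphocyte markers outside the sort gate were called higher at shares not far from the 8.01% of all tested genes. Of 16 CD8 T cell and natural killer cell genes 2 rose (12.5%), Ccl5 and Klrk1. All 16 had a log2 difference above 0, with a median of 2.27. As higher, DESeq2 called 6 of them, and edgeR 11 without the filter, 11 with libraries scaled to T cell genes and 0 with total counts. Ccl5, a chemokine of cytotoxic lymphocytes, stood at 348 and 1032 CPM in the brain libraries, 163 and 283 in those of tMCAO blood and 62.1 and 118 in those of sham blood (a log2 change of 2.94 ± 0.66, edgeR adjusted p = 0.0428), a call lost without brain library 2 and without tMCAO blood library 1 or 2 (edgeR adjusted p = 0.0883, 0.0502 and 0.0508). Klrk1, an activating receptor of natural killer cells, passed in 8 of 16 alternatives and was lost without brain library 2 (edgeR adjusted p = 0.0899), without any of the 4 blood libraries in turn, with total counts, with red cell genes removed and in limma-voom. Of 15 B and plasma cell genes tested only Cd22, an inhibitory receptor of B cells that microglia also carry, rose (6.67%). Cd22 stood at 50.8 and 40.9 CPM in the brain libraries and 1.48 and 6.97 in those of sham blood (a log2 change of 3.44 ± 0.80, edgeR adjusted p = 0.046), a call lost without brain library 1 or 2, tMCAO blood library 2, or sham library 1 or 2 (edgeR adjusted p between 0.0508 and 0.195). No other member of the list was called under the main setting, and Cd22 was not higher in brain library 2, which held the high B and plasma cell share. Of this list edgeR called 5 as higher and 1 as lower without the filter on low counts. It called 8 as higher with libraries scaled to T cell genes and 0 with DESeq2 size factors or total counts. Jchain, the joining chain of secreted immunoglobulins, had 67171 counts in brain library 2, 0 in brain library 1 and 4 in sham blood, did not pass the filter and was not tested.

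Markers of non-immune brain cells were present at low levels and were uneven between the brain libraries. Of 13 astrocyte markers tested 5 rose and none fell. Slc1a3, a glutamate transporter, stood at 28.9 and 49.1 CPM in the brain libraries, 2.42 and 4.93 in those of tMCAO blood and 0.706 and 0.0704 in those of sham blood (a log2 change of 6.60 ± 0.96, edgeR adjusted p = 0.0159). Of 9 oligodendrocyte markers 2 rose, Cspg4, a proteoglycan of precursor cells, at least 116-fold (11.6 and 11.7 CPM in brain, no count in sham blood, edgeR adjusted p = 0.0146) and Mobp, a myelin protein, at least 265-fold (6.47 and 40.3 CPM in brain, no count in sham blood, edgeR adjusted p = 0.0378). The Mobp call was lost without brain library 2 (edgeR adjusted p = 0.0614) and by DESeq2, and without brain library 2 only 1 astrocyte marker passed. Of the 40 listed genes that were not tested, 34 had no count in sham blood and 11 had over 100 counts in brain library 2, while none had as many in brain library 1. Of 7 neuron markers 2 fell, Nrgn and Gad1, and Nrgn, neurogranin, is also a gene of platelets. No neuron marker was called lower with libraries scaled to T cell genes. Of 12 endothelial and mural genes tested only Ly6c1 passed, as lower, and it is a gene of lymphocytes as well. Without sham library 1 or 2 none of these calls held in edgeR.

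Ttr, transthyretin, a transport protein made by the choroid plexus, had one of the largest called differences and was uneven. It stood at 83.7 and 3874 CPM in brain, 0.162 and 0.199 CPM in tMCAO blood and 0 in sham blood, at least 23300-fold higher (edgeR adjusted p = 0.0317). Both brain libraries were above all blood libraries, and they differed from each other by more than an order of magnitude. Its call was lost in limma-voom, without tMCAO blood library 1 or 2 (edgeR adjusted p = 0.0527 and 0.0534) and without sham library 1 or 2 (0.165 and 0.163). Tspan7, a tetraspanin of brain cells, was even by contrast, at 106 and 80.2 CPM in brain with no count in any blood library, at least 902-fold above sham blood (edgeR adjusted p = 0.00841).

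Red cell genes were among the largest falls. Of 16 tested, 12 fell and none rose (10 fell and 2 rose with libraries scaled to T cell genes), with a median log2 difference of -12.79, or -9.76 with the 5 genes at no brain count set to their bound. Hbb-bs, encoding a beta globin of haemoglobin, stood at 0.423 and 0 CPM in the brain libraries, 572 and 17355 in those of tMCAO blood and 72632 and 76933 in those of sham blood (a log2 change of -18.55 ± 2.87, edgeR adjusted p = 0.018). Hbb-bt and Hba-a2, a beta and an alpha globin, had no count in brain and were at least 294081-fold and 167724-fold lower there. The globin genes have near-identical copies that can share reads. Alas2, the first enzyme of haem synthesis in red cells, had 2 counts over both brain libraries, against 4844 and 6976 CPM in sham blood. tMCAO blood library 1 held few red cell counts too, 0.134% of its total against 3.93% in tMCAO blood library 2, so 1 blood library was low in these genes as well.

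Epb42 (chromosome 2, 121017891 to 121037072, minus strand), a protein of the red cell membrane skeleton, had no count in brain, 0.108 and 0.249 CPM in the libraries of tMCAO blood and 40.3 and 79.4 in those of sham blood, at least 806-fold lower in brain (edgeR adjusted p = 0.00841). Fech, ferrochelatase, the last enzyme of haem synthesis, is transcribed in all cells and stood at 43.3 and 53.4 CPM in the brain libraries, 31.9 and 108 in those of tMCAO blood and 1804 and 2646 in those of sham blood (a log2 change of -5.52 ± 0.72, edgeR adjusted p = 0.0138). With libraries scaled to T cell genes the Fech difference was -1.70 on the log2 scale and did not pass (edgeR adjusted p = 0.344). Alas1, the Alas2 counterpart of other tissues, went the other way, at 230 and 134 CPM in the brain libraries, 34.8 and 21.8 in those of tMCAO blood and 22.1 and 26.3 in those of sham blood (a log2 change of 2.91 ± 0.40, edgeR adjusted p = 0.0146). Slc11a1, an iron transporter of the phagosome, rose as well, at 334 and 253 CPM in the brain libraries, 367 and 208 in those of tMCAO blood and 36.6 and 48.6 in those of sham blood (a log2 change of 2.79 ± 0.40, edgeR adjusted p = 0.0158). Of the 21 iron and haem genes tested, these 2 rose and Fech and Alas2 fell. For Slc11a1 the brain and tMCAO blood libraries overlapped, with a log2 difference of 0.03 (edgeR adjusted p = 0.97). Red cell calls numbered 7 without brain library 1 or 2, 14 without tMCAO blood library 1 or 2, 5 in limma-voom and 0 without sham library 1 or 2, and the Alas2 and Hbb-bt calls were among those lost without each brain library (edgeR adjusted p between 0.0565 and 0.0679).

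With the red cell genes taken out of the table, 1722 genes passed, 1291 higher and 431 lower. Promoters of red cell genes are shown because the letters AGATAA, the core bound by GATA factors of the red cell lineage, stand before 3 of the 7 genes of the list that fell and have an entry (Hbb-bs, Epb42 and Alas2). The letters, or their reverse complement, were found in the 250 bases before the start of 11.4% of 27025 genes with an entry, 7.68% of tested genes with one, 7.21% of genes called higher, 4 of 21 immediate early genes called higher (19%) and 13.1% of genes called lower. The stretches below are free of annotated exons, on the gene's strand and build GRCm38.p6 (RefSeq), with the match in capitals. They are those of Hbb-bs (chr7:103828097-103828178, minus strand), Epb42 (chr2:121037073-121037127, minus strand) and Alas2 (chrX:150547167-150547374, plus strand), with the first base of the match 210, 226 and 86 bases before the start.

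Hbb-bs: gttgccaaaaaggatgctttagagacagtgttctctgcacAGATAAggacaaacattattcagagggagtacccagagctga
Epb42: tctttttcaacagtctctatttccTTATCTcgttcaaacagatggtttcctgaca
Alas2: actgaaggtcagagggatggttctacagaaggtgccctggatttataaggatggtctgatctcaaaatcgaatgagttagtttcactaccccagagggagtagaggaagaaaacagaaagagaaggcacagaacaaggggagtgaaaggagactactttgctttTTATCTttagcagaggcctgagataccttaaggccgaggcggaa

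Platelet and megakaryocyte genes fell in 13 of 15 tested cases and rose in none, with a median log2 difference of -7.09. With libraries scaled to T cell genes 7 fell and the median was -3.47. Ppbp (chromosome 5, 90768518 to 90770063, plus strand), a chemokine stored in platelet granules, stood at 0.0605 and 0.123 CPM in the brain libraries, 49.0 and 80.8 in those of tMCAO blood and 377 and 677 in those of sham blood (a log2 change of -12.32 ± 0.71, edgeR adjusted p = 0.00841). Itga2b, the integrin chain of the platelet fibrinogen receptor, stood at 0.484 and 0.572 CPM in the brain libraries, 4.52 and 12.3 in those of tMCAO blood and 63.1 and 83.8 in those of sham blood (a log2 change of -7.09 ± 0.65, edgeR adjusted p = 0.00841). Tubb1, the beta tubulin of platelets, fell from 79.7 and 134 CPM in sham blood to 0.121 and 0.163 CPM in brain. Under that scaling Itga2b no longer passed (edgeR adjusted p = 0.0728). Groups did not overlap in Ppbp and Itga2b, with tMCAO blood between the other two. Without brain library 1 or 2 there were 12 platelet calls, and without sham library 1 or 2 none in edgeR.

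A few called genes without a list had small errors. Dhrs11 (chromosome 11, 84820856 to 84828994, minus strand), a short-chain dehydrogenase, stood at 12.7 and 16.3 CPM in the brain libraries, 1.13 and 1.20 in those of tMCAO blood and 154 and 225 in those of sham blood (a log2 change of -3.71 ± 0.33, edgeR adjusted p = 0.00841). Its lowest level was in tMCAO blood, below brain and far below sham blood. Marchf2, a membrane ubiquitin ligase, stood at 52.7 and 50.7 CPM in the brain libraries, 78.8 and 111 in those of tMCAO blood and 693 and 794 in those of sham blood (a log2 change of -3.85 ± 0.34, edgeR adjusted p = 0.00841). Bhlhe40, a transcription factor of activated lymphocytes and macrophages, stood at 230 and 376 CPM in the brain libraries, 67.5 and 43.2 in those of tMCAO blood and 10.1 and 9.50 in those of sham blood (a log2 change of 4.95 ± 0.43, edgeR adjusted p = 0.00841). With libraries scaled to T cell genes Dhrs11 and Marchf2 no longer passed and their log2 differences were near 0 (0.0998 and 0.0992), and without sham library 1 or 2 none of the 3 passed in edgeR.

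**Figure D5:**
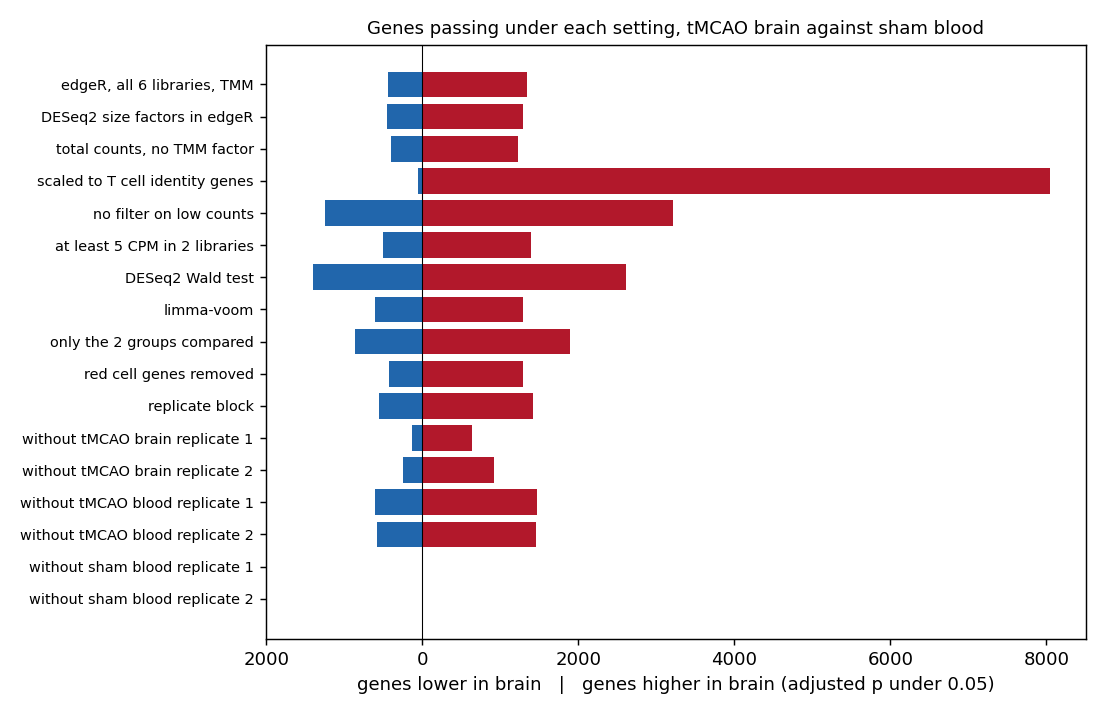
Number of genes called higher (right) and lower (left) in tMCAO brain than in sham blood under the main setting and 16 alternatives. The count of 1772 under edgeR with all 6 libraries drops to 0 without sham blood library 1 or 2 and reaches 8099, nearly all upward, with libraries scaled to T cell identity genes.

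Some of the genes named by the rule overlap another protein-coding gene in GENCODE M21 (GRCm38). Because the strand setting is not given in the sources used here, reads of the overlapped parts cannot be assigned with certainty. Among them are Acaca, Alas2, B2m, Csf1r, Csrnp1, Ctsd, Cxcl16, Foxp3, Grn, Hspa1a, Irf8, Ppp1r15a, S100b, Timp2 and Ube2c.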

How the data were processed

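Messenger RNA of sorted cells was sequenced as paired 75 bp reads from amplified cDNA with no molecular identifiers, and intervals and floors therefore express counting error alone. The deposited table holds raw counts per gene, which the authors obtained with STAR, HTSeq 0.11.2 and the build GRCm38, per the submitters' processing notes. Annotation release, strand setting and treatment of multimapping reads are not given in the sources used here.

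Libraries were grouped by their titles. No library repeats another: replicates differed beyond counting noise, with a chi-square per degree of freedom of 204 for brain, 219 for tMCAO blood and 25.3 for sham blood. Genes were filtered with filterByExpr (minimum count 10), TMM-scaled and fitted in edgeR 4.0.16 (R 4.3.3), whose quasi-likelihood test gave the p-values. All 6 libraries entered one fit of 3 group means with 3 residual degrees of freedom and no covariate. P-values were adjusted by Benjamini-Hochberg over all 16657 tested genes, with a threshold of 0.05. A standard error is the size of the log2 change over the square root of F. CPM use the TMM-adjusted library size and shares use raw totals (95% Wilson intervals). Where a group is at 0, the fold is a lower bound that sets it to 3 counts, and where it has 1 to 3 counts the ratio is given with an exact 95% interval. Lists are described by counts and medians, with no set test. The tests were checked on simulated counts.

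The comparison, the 37 gene lists and the rule for named genes were chosen with earlier results of these data known. The rule named genes of the sort gate, Spp1 and Cd3e. It also named the 15 largest called changes in each direction whose groups did not overlap and the 10 called genes in each direction with the smallest adjusted p, from a mean of 20 CPM in the higher group. Predicted genes and antigen receptor segments were left out. Of each list it named up to 4 called members, or the 2 most abundant members where none was called. Of 51361 gene symbols, 97.16% were found in GENCODE M21, which gave coordinates. Promoters came from RefSeq and were searched for 7 motifs, of which those of CREB and GATA factors are printed. Results for some named genes are not reported here.

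Alternatives were DESeq2 size factors and total counts as scaling, libraries scaled to T cell identity genes, no filter, at least 5 CPM in 2 libraries, DESeq2 1.42.0, limma-voom (limma 3.58.1), only the 2 groups compared, red cell genes removed, the replicate number as a block and each library left out. Where a fit leaves 1 library in a group, that library is assumed to vary like the other groups. DESeq2 and limma-voom without a sham library were added after the results were seen.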

Additional observations from a re-analysis of the deposited data

How the results depend on the processing

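Calls depended most on the sham libraries and on the scaling. Leaving out each library in turn gave 0 to 2080 called genes, 0 to 1474 higher and 0 to 606 lower, where the main setting gave 1772, 1335 and 437. The lowest values came without sham blood library 1 or 2, and the added fits by limma-voom without either gave 0 in all 3 counts. DESeq2 without sham library 1 called 2036 (1535 higher, 501 lower), and without library 2, 2030 (1609 higher, 421 lower). The cause was not tested. Libraries scaled to T cell identity genes gave 8099 calls, 8046 higher and 53 lower. No filter on low counts gave 4458 (3211 and 1247), with 31242 genes tested. The Wald test of DESeq2 gave 4007 (2603 and 1404), of which 64.96% were higher against 75.34% in the main setting. Only the 2 groups compared gave 2752 (1892 and 860). With the replicate number as a block, 1977 genes passed (1416 and 561). The labels do not say that the numbers pair libraries across groups. Deviations of same-numbered libraries from their group means correlated at -0.028 between brain and sham blood and 0.304 between brain and tMCAO blood. With 2 libraries a group, these values cannot decide whether libraries are paired. The other scalings, the stricter filter, limma-voom and the removal of red cell genes gave 1624 to 1892 calls.

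For the 141 named genes, 1816 of 2242 alternative values kept the side of the threshold, 387 lost the call, 32 gained one and 7 reversed. A change of sign counted as a reversal only where the gene passed in the main setting or under the alternative. Sign changes of genes that passed in neither are among the 1816, as for Foxp3, Il2ra and Cd4. All 7 reversals came with libraries scaled to T cell genes and none passed there: Batf 2.40, Bnip3l 1.26, Dhrs11 0.0998, Klf3 2.44, Marchf2 0.0992, Snhg20 0.893 and Treml4 0.649 on the log2 scale. Depth limits the genes at 0 or a few counts in a group, whose folds are bounds or have wide counting intervals.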
